A study of Mus musculus with 6 samples.

Results

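The genes described here encode the enzymes that write and remove methyl groups on cytosine in DNA, a cofactor of the writers and 2 proteins that read the mark. They are Dnmt1, Uhrf1, Dnmt3a and Dnmt3b (writers), Mbd1 and Mbd2 (readers), and Tet1, Tet2 and Tet3 (erasers). The 9 genes were chosen by name and not by any measured value, although earlier results of these data were known at the time. Each symbol matched 1 of the 54532 gene identifiers counted per library, and all 9 were among the 16731 genes that passed the filter on low counts and were tested. RNA was sequenced from whole mouse brains of strain C57BL/6J at postnatal day 14, with 1 library per brain and 3 brains per genotype. Control brains were Mphosph8fl/+ Nestin-Cre+, with 1 floxed copy of Mphosph8, and mutant brains were Mphosph8fl/fl Nestin-Cre+, with both copies floxed. All 6 brains thus carried the Nestin-Cre transgene, and the controls are heterozygous for the allele by their labels, although the study's text names only the transgene for them. Nestin-Cre recombines floxed DNA in progenitors of the nervous system and in their progeny, so that cells of other origin in a whole brain, such as microglia and blood vessel cells, keep the gene.

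Methylation of cytosine, mostly where it is followed by guanine (CpG), keeps many promoters and repeated sequences silent. UHRF1 binds CpG sites that carry the mark on only 1 strand after replication and brings DNMT1 there to copy it, while DNMT3A and DNMT3B add it to unmarked DNA, and in young postnatal neurons DNMT3A also writes it outside CpG. MBD1 and MBD2 bind methylated CpG through a shared domain and recruit repressors, and the TET enzymes oxidise the methyl group to 5-hydroxymethylcytosine, a form abundant in neurons. MPP8, encoded by Mphosph8, acts in the HUSH complex, which silences chromatin through trimethylation of histone H3 lysine 9. The study sequenced RNA to find which transcripts differ when Mphosph8 is lost from the nervous system, and the values of the DNA methylation genes are read from that comparison. Neither DNA methylation nor protein was measured in these files.

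The regions just before the start sites are shown first, since CpG is the substrate of these enzymes and the 7 members with a promoter entry in RefSeq (GRCm38.p6) differ in it. CG was counted in the 250 bases before each annotated start, on 1 strand only since CG reads the same on both. The 12 windows of the members held from 2 to 51 CG, against a median of 6 over all 32851 windows. Of the 12 windows, 10 held at least 10 CG, against 37.8% of all windows. Windows of 1 gene can overlap, and a count of CG says nothing of whether the sites are methylated. Below, the densest and the sparsest window and that of the member with the lowest level are printed in the direction of transcription with CG in capitals, for starts whose following bases were found in an annotated transcript of the gene and whose window holds no annotated exon.
Tet2, chr3:133544391-133544640, minus strand, 51 CG: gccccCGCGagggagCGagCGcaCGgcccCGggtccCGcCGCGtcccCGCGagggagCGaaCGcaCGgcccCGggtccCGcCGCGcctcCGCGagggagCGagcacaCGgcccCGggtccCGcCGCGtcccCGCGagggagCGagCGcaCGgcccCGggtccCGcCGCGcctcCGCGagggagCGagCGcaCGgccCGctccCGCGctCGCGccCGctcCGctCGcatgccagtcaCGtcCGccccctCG
Dnmt3b, chr2:153649199-153649448, plus strand, 21 CG: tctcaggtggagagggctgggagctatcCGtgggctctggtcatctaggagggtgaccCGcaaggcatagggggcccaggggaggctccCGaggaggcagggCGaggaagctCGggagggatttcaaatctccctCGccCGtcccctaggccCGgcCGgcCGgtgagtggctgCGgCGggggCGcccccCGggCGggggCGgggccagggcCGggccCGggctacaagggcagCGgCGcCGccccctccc
Dnmt1, most upstream start, chr9:20959889-20960138, minus strand, 2 CG: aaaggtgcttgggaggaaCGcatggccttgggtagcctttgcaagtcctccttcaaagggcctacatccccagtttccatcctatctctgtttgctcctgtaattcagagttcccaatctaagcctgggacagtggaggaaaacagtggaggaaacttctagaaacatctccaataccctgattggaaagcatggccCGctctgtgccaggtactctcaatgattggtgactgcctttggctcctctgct

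The window of Tet2 is matched or exceeded in CG by 0.067% of all windows. A similar CG-rich stretch recurs along it. It lies inside the annotated span of the gene, whose outermost start is at 133545139. The window of Dnmt3b is matched or exceeded by 16.3% of windows and that of the upstream Dnmt1 start by 81.2%. Both other annotated Dnmt1 starts lie downstream, where the window chr9:20952980-20953229 holds 7 CG and the window chr9:20952624-20952873 holds 26. Reads were counted per gene, so the values below do not separate the starts of a gene.

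Depth ran from 12956880 to 15223424 counts per library, with reads on 25461 to 25743 genes. The deleted gene itself, Mphosph8, stood at 55.8, 48.6 and 70.7 CPM (counts scaled to a common library size) in control replicates 1 to 3, and 33.1, 27.2 and 26.5 CPM in mutant replicates 1 to 3. The groups did not overlap, with a log2 fold change of -1.02 ± 0.12 (SE, edgeR adjusted p 0.000157). Counts over the whole gene include exons outside the floxed part. Control replicate 3 held 3641 counts of 4 Y-linked genes and the other 5 libraries 1 count together, so that 1 control brain differs from the rest in sex, which the labels used here do not give. Controls and mutants were littermates by the study's text, with no litter given per brain. The p-values set the genotype difference against the spread between brains of a genotype, and neither sex nor litter was in the fit.

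None of the 9 genes was called in the mutant brains. By edgeR at an adjusted p under 0.05, 0 of the 9 passed in either direction, against 0.628% of all genes tested, and 0 passed with a fold change over 2 as well, against 0.359%. At an unadjusted p under 0.05 the count was also 0, against 6.51% of all genes, and DESeq2 and limma-voom gave 0 by both measures. The mutant and control values overlapped for all 9, and 11.6% of all genes had groups that did not overlap. Among only 9 genes, shares of these sizes readily give a count of 0, so these counts do not set the 9 apart from all genes. Adjusted p-values ran from 0.96 for Dnmt3a to 0.997 for Mbd1. The log2 fold changes lay between -0.15 for Dnmt3b and 0.08 for Tet2, with a median of 0.01, against a median of -0.007 over all genes. Ignoring sign, their median size was 0.026, against 0.090 over all genes, many of which had fewer counts. How large a difference could still be present is given by the 95% intervals below, since a test that misses its threshold does not show equal levels.

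**Figure D1:**
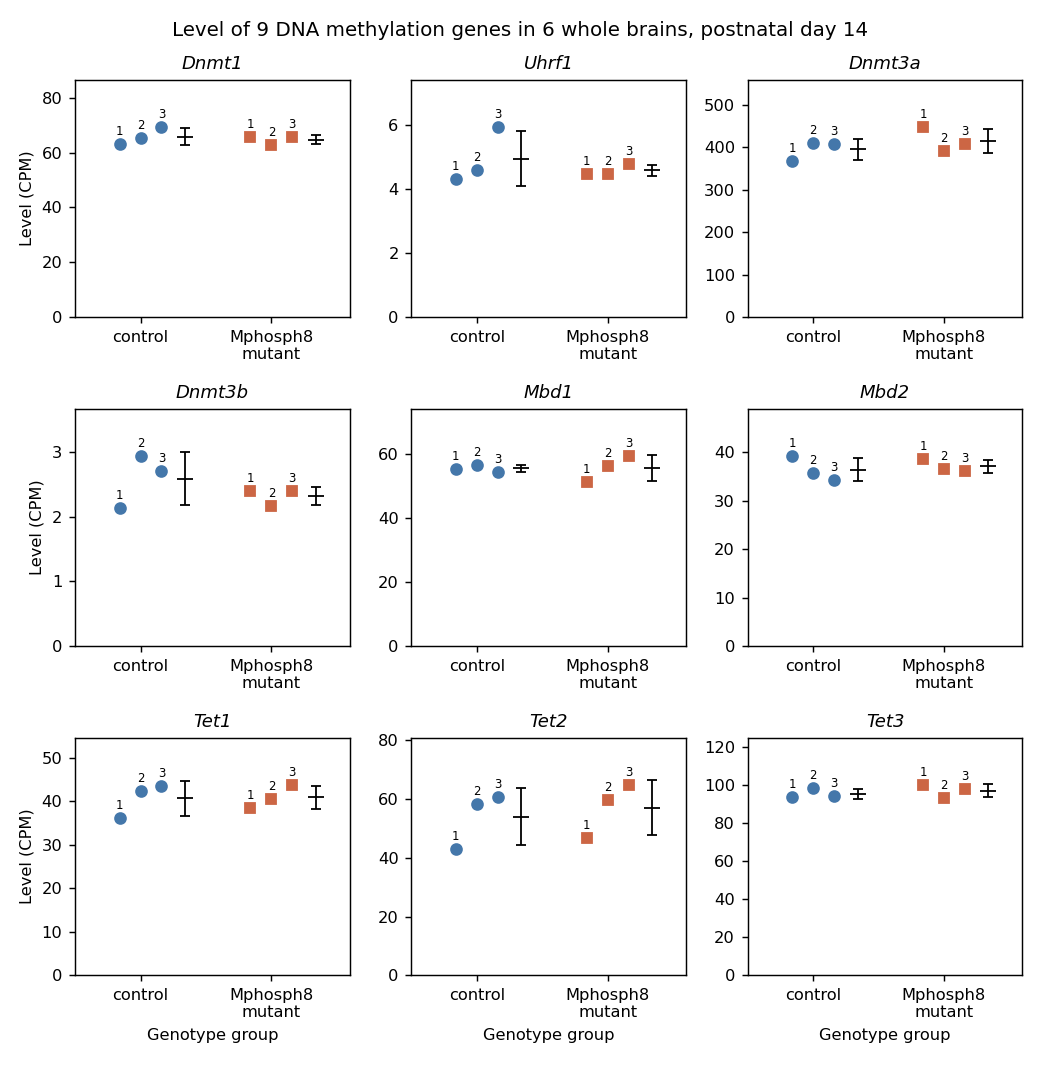
Level of each gene in CPM (vertical axis from 0) in 3 control brains (circles) and 3 Mphosph8 mutant brains (squares), with replicate numbers above the points and the mean ± SD beside them. Control and mutant points overlap in every panel, and Tet2 has its lowest values, 43.0 and 46.7 CPM, in replicate 1 of both groups.

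The maintenance enzyme Dnmt1 (ENSMUSG00000004099, chromosome 9, 20907209 to 20959888, minus strand, GRCm38) was at 63.0, 65.2 and 69.3 CPM in controls and at 65.6, 62.9 and 65.7 CPM in mutants. The mutant values sat inside the control range except for replicate 2, which was just under it. The fold change was 0.983 with a 95% interval from 0.877 to 1.1, or -0.02 ± 0.08 (SE) on the log2 scale, at an edgeR adjusted p of 0.988.

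Uhrf1 (ENSMUSG00000001228, chromosome 17, 56303321 to 56323486, plus strand), which guides DNMT1 to replicated DNA, was at 4.32, 4.61 and 5.94 CPM in controls and at 4.48, 4.48 and 4.80 CPM in mutants. Control replicate 3 stood above the other 5 libraries. The log2 fold change was -0.11 ± 0.18 (SE, edgeR adjusted p 0.977), and without control replicate 3 it was 0.04 with an adjusted p of 0.992. The interval of the fold change, from 0.707 to 1.21, was wider than that of Dnmt1, since the gene had only 56 to 88 counts per library. Of the 50-base words in its transcripts, 15.4% also occur in Gm5648 or Gm15953. These 2 loci had between 0 and 1 count per library, and since the sources used here do not say how reads matching several loci were counted, the level of Uhrf1 is uncertain.

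Of 16 markers of proliferation, 12 had their highest value of the 6 libraries in control replicate 3, and Cdk1, Ccnb1, Mcm4 and Mcm7 had it in another. The summed level was 138, 139 and 193 CPM in controls and 150, 143 and 153 CPM in mutants. Mki67, a nuclear protein of cycling cells, was at 17.2, 19.1 and 31.1 CPM in controls and at 25.4, 19.3 and 19.7 CPM in mutants. Top2a, the topoisomerase of dividing cells, was at 31.7 CPM in control replicate 3 and between 17.7 and 19.5 CPM in the other 5 libraries. Mcm5, a subunit of the replicative helicase, was at 10.1 CPM there and between 7.85 and 9.24 CPM elsewhere. None of the 16 markers passed in edgeR (adjusted p from 0.875 to 0.997), and 6 had a positive and 10 a negative log2 fold change. The part of dividing cells in the Uhrf1 values was not tested. Control replicate 3 is also the brain that differs from the rest in sex, and sex cannot be told apart from other differences of that library. In whole brains fewer cells of a type and less RNA per cell cannot be told apart.

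**Figure D2:**
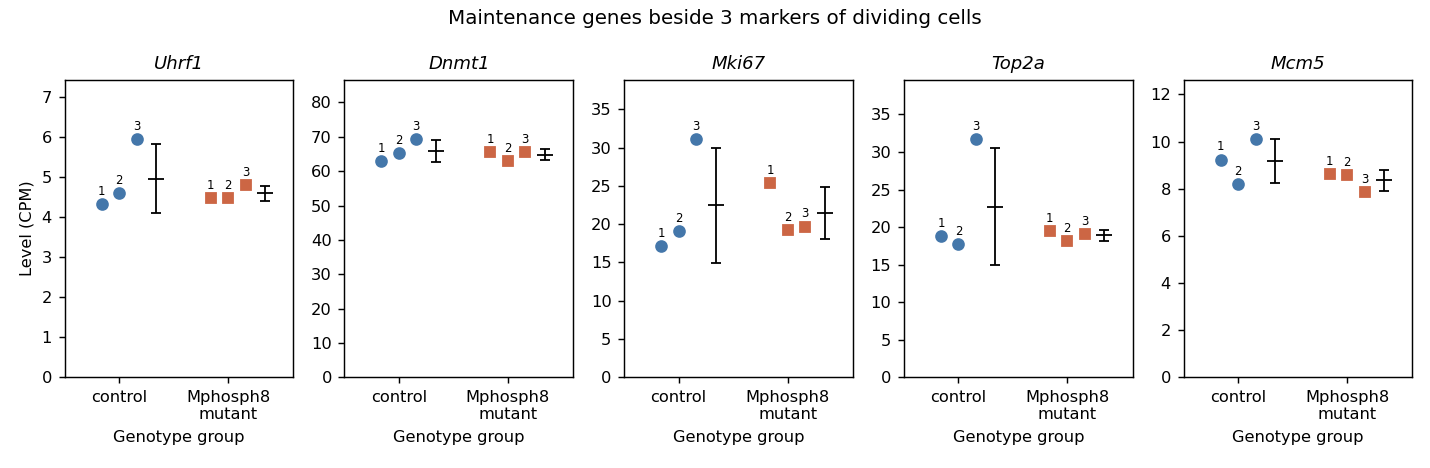
Level in CPM (vertical axes from 0) of Uhrf1 and Dnmt1 beside Mki67, Top2a and Mcm5 in 3 control (circles) and 3 Mphosph8 mutant brains (squares), with replicate numbers and the mean ± SD. Control replicate 3 is the highest of the 6 libraries in each panel.

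The writer with the most reads was Dnmt3a (ENSMUSG00000020661, chromosome 12, 3806007 to 3914443, plus strand), the de novo methyltransferase of postnatal neurons. It was at 367, 409 and 408 CPM in controls and at 447, 390 and 407 CPM in mutants. Mutant replicate 1 was the highest library, while the other mutant brains lay within the control range. Its fold change was 1.05, with an interval from 0.923 to 1.19 and an edgeR adjusted p of 0.96, the smallest of the 9 genes. An antisense gene, Dnmt3aos, covers 133 of its 16642 exonic bases and had no counts in any library.

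Dnmt3b (ENSMUSG00000027478, chromosome 2, 153649450 to 153687730, plus strand), the de novo enzyme known mainly from the early embryo, was near the bottom of the tested range. Its libraries held 32, 40 and 40 counts in controls and 30, 29 and 33 in mutants, or 2.13, 2.93 and 2.70 CPM and 2.40, 2.16 and 2.40 CPM. The 3 mutant values lay inside the span of the controls. The fold change was 0.9 with the widest interval of the 9 genes, from 0.638 to 1.27 (edgeR adjusted p 0.975), so that a fall to 0.638 of the control level cannot be told from no difference at this depth. Of its words, 9.81% occur in Dnmt3c, a duplicate of the gene known from the male germ line, which had 1 to 7 counts per library, and the Dnmt3b counts are uncertain to that extent. Dnmt3l, the cofactor of de novo methylation in germ cells, had at most 1 count in a library and was not tested.

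Both readers had log2 fold changes near 0, at 0.01 for Mbd1 and 0.03 for Mbd2. Mbd1 (ENSMUSG00000024561, chromosome 18, 74267605 to 74282732, plus strand) was at 55.3, 56.5 and 54.4 CPM in controls and at 51.3, 56.2 and 59.2 CPM in mutants. The mutant brains spread to both sides of the controls, and the fold change was 1.00 with an interval from 0.889 to 1.13 (edgeR adjusted p 0.997). Mbd2 (ENSMUSG00000024513, chromosome 18, 70568189 to 70626131, plus strand), the methyl-CpG binding subunit of a NuRD repressor complex, was at 39.2, 35.8 and 34.4 CPM in controls and at 38.7, 36.5 and 36.2 CPM in mutants. All 3 mutant values lay within the control range. Its fold change was 1.02, with an interval from 0.893 to 1.16 and an edgeR adjusted p of 0.989. No word of either gene was found in another annotated gene.

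Among the erasers, Tet3 (ENSMUSG00000034832, chromosome 6, 83362373 to 83459084, minus strand) had the most reads and the smallest spread over the 6 libraries, with a coefficient of variation of 2.95%. It was at 93.5, 98.4 and 94.2 CPM in controls and at 99.7, 93.1 and 97.7 CPM in mutants. The fold change was 1.02 with an interval from 0.910 to 1.13 (edgeR adjusted p 0.988). Tet1 (ENSMUSG00000047146, chromosome 10, 62804570 to 62908996, minus strand) was at 36.0, 42.4 and 43.4 CPM in controls and at 38.5, 40.4 and 43.6 CPM in mutants. Replicate 1 was lowest in both groups, and the fold change was 1.01 with an interval from 0.876 to 1.16 (edgeR adjusted p 0.996).

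Tet2 (ENSMUSG00000040943, chromosome 3, 133463679 to 133545139, minus strand), whose product lacks the DNA-binding domain of the other two, varied most between brains of 1 genotype. It was at 43.0, 58.3 and 60.9 CPM in controls and at 46.7, 59.8 and 64.7 CPM in mutants, a coefficient of variation of 17.9% and 16.3%. Replicate 1 again held the lowest value of each group, although the numbers mark no shared litter or batch in the labels, and the cause was not tested. The log2 fold change was 0.08 ± 0.13 (SE, edgeR adjusted p 0.975), and the interval of the fold change ran from 0.880 to 1.27. Leaving out mutant replicate 1 gave 0.20 with an adjusted p of 0.636, and leaving out control replicate 1 gave -0.06 with 0.989, and leaving out mutant replicate 3 gave -0.02 with 0.999, so that its sign turned with the library left out. A predicted gene on the other strand, Gm42567, covers 43 of the exonic bases.

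Read as limits, the intervals of 6 of the 9 genes lay within a 1.2-fold change in either direction, namely Dnmt1, Dnmt3a, Mbd1, Mbd2, Tet1 and Tet3. The same held for 27.5% of all genes tested. Within a 1.5-fold change lay 8 of the 9 intervals, all but that of Dnmt3b, against 74.3% of all genes. Both limits were chosen after the values were seen, and an interval narrows as a gene's counts grow, so these shares also describe how deeply the 9 genes were counted, with 29 to 6044 counts in a library.

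**Figure D3:**
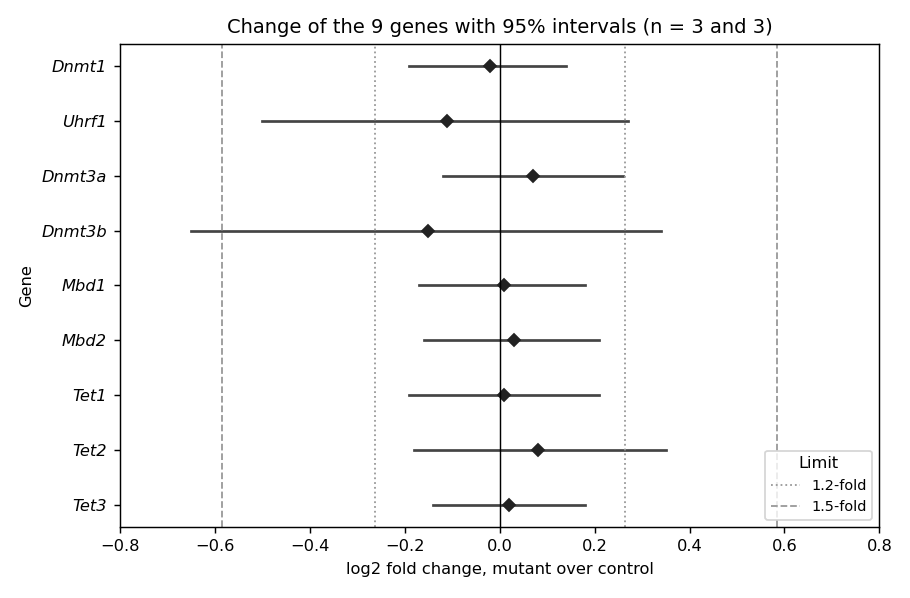
Log2 fold change of mutant over control brains (horizontal axis) for each gene, with the point estimate (diamond) and its 95% interval (line), from 3 and 3 libraries. Each interval crosses 0, and those of Uhrf1, Dnmt3b and Tet2 reach beyond the dotted lines at a 1.2-fold change.

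Levels of different genes were compared as CPM per kilobase of annotated exon. In this order Dnmt3a was highest, with a median of 24.5 over the 6 libraries (range 22.1 to 26.8), followed by Mbd2 at 11.3, Dnmt1 at 8.87, Mbd1 at 8.31, Tet3 at 5.75, Tet2 at 3.50, Tet1 at 2.68, Uhrf1 at 1.07 and Dnmt3b at 0.47. The ranges of Dnmt1 and Mbd1 overlapped, as did those of Tet2 and Tet1, and no other neighbours did. With the length of the longest protein-coding transcript in place of all exons, a choice made after the data were seen, Mbd1 (13.1 to 15.1) moved above Dnmt1 (10.7 to 11.8) and Tet2 (4.68 to 7.05) separated from Tet1 (2.51 to 3.04). The rest of the order stayed as it was.

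**Figure D4:**
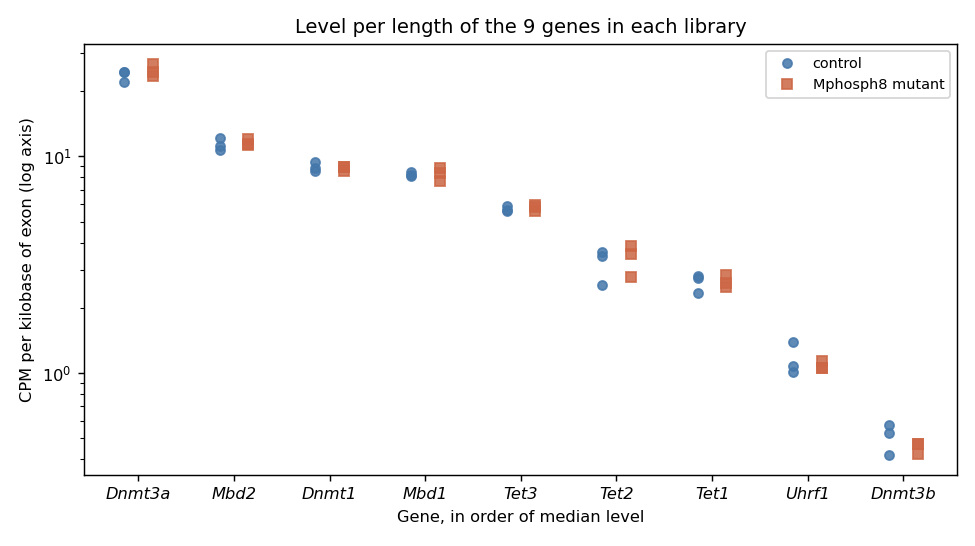
CPM per kilobase of exon (vertical log axis) of the 9 genes in order of their median, with 1 point per library for 3 control (circles) and 3 Mphosph8 mutant brains (squares). Dnmt3a lies at 22.1 to 26.8 and Dnmt3b at 0.417 to 0.574, and the genotypes overlap for each gene.

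The balance within each enzyme family can be given per library without regard to depth, but it depends on the gene length used. The shares below use all annotated exonic bases. With the longest protein-coding transcript the medians of Tet3, Tet2 and Tet1 were 8.80, 6.43 and 2.88, against 5.75, 3.50 and 2.68. Those of Dnmt3a and Dnmt1 were 42.1 and 11.1, against 24.5 and 8.87. Shares by that length would differ and were not computed. Of the summed level per length of the 3 Dnmt genes, Dnmt3a took 71.1% to 72.3% in controls and 72.3% to 74.1% in mutants, Dnmt1 26.0% to 27.5% and 24.6% to 26.3%, and Dnmt3b between 1.30% and 1.69% over all 6 libraries. Tet3 made up 53.4%, 48.7% and 46.8% of the Tet genes in controls and 53.2%, 47.5% and 46.8% in mutants. Tet1 stayed between 22.2% and 23.3% in all libraries. The share of Tet2 was 24.3% and 24.6% in replicate 1 of the 2 groups and 28.6% to 30.7% in the other 4 brains. Control and mutant values overlapped or touched for each of these shares.

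Partners of the 9 genes were taken from 5 lists with 65 genes, of which 64 were tested. Of these, 0 were past an adjusted p of 0.05 in edgeR, DESeq2 or limma-voom. At an unadjusted p under 0.05 there were 2 in edgeR, 2 in DESeq2 and 2 in limma-voom. That edgeR count varied with the library left out, from 0 without mutant replicate 1 to 6 without mutant replicate 2. The groups did not overlap for 7 of the 64, or 10.9%, which is close to the 11.6% of all genes. By list this held for 0 of 9 tested maintenance partners, 2 of 8 other readers (25%) and 4 of 17 corepressors (23.5%). It held for 0 of 19 demethylation partners and 1 of 11 genes of methyl donor supply. The median log2 fold change was -0.04, with 21 genes above and 43 below 0, against 7967 above and 8764 below among all genes tested.

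The 10 maintenance partners of DNMT1 and of the de novo enzymes had a median log2 fold change of -0.12 over 9 tested genes. The largest value was that of Hells, a chromatin remodeller needed for methylation of repeats, at 6.18 ± 0.675 CPM in controls against 6.92 ± 0.775 CPM in mutants (SD, n = 3). The smallest was that of its binding partner Cdca7, at 6.28 ± 0.964 and 5.12 ± 0.980 CPM. Neither passed, with edgeR adjusted p-values of 0.941 and 0.897, and the values of both groups overlapped.

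The 8 other reader genes had a median of 0.03, from -0.02 for Mbd5 to 0.11 for Mbd4, a glycosylase that removes thymine from T:G mismatches. MBD3, MBD5 and MBD6 belong here by their domain, and are not known to bind methylated CpG tightly. None of the 8 passed at an adjusted p under 0.05 in edgeR.

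Of the 17 corepressors that readers recruit, Chd3, a remodeller of the NuRD complex, had the largest value. It was at 871, 873 and 820 CPM in controls and at 1104, 913 and 982 CPM in mutants, and these did not overlap. Its difference of 0.23 ± 0.10 (SE) on the log2 scale had an unadjusted p of 0.0313 in edgeR and an adjusted p of 0.679. The histone-binding subunit Rbbp7 had the smallest value, -0.15 ± 0.08, with an adjusted p of 0.804. Rbbp7, Rbbp4 and Gatad2a, the last a NuRD subunit, were lower in all 3 mutant brains than in any control. Rbbp4 and Gatad2a are named for that reason, after their values were seen. With Chd3, 4 of the 17 genes thus did not overlap, or 23.5%, against 11.6% of all genes. The list had a median of -0.02.

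The 19 partners in demethylation had a median of -0.11, with 3 genes above and 16 below 0. Neil3, a DNA glycosylase of dividing cells, had the smallest value, -0.66 ± 0.37 (SE, edgeR adjusted p 0.866). It was at 3.98 CPM in control replicate 3 and between 1.2 and 1.68 CPM in the other 5 libraries. Control replicate 3 is the library that also stood apart for Uhrf1, Mki67 and Top2a, and the brain that differs in sex. Cxxc4, a protein that binds unmethylated CpG and TET2, had the largest value, 0.12 ± 0.09, with an adjusted p of 0.917. Gadd45b, an activity-induced gene linked to demethylation in neurons, was the other gene with an unadjusted p under 0.05 (0.0388) and is named for that reason. It was at 8.71, 6.88 and 5.80 CPM in controls and at 4.80, 6.72 and 4.29 CPM in mutants, which overlap, with an edgeR adjusted p of 0.716.

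The 11 genes of methyl donor supply had a median of -0.05. Values ran from -0.14 ± 0.23 (SE) for Ahcy, the hydrolase of S-adenosylhomocysteine, to 0.14 ± 0.09 for its relative Ahcyl1, with edgeR adjusted p-values of 0.976 and 0.884. Ahcyl1 was at 656, 676 and 650 CPM in controls and at 735, 727 and 724 CPM in mutants. Its groups did not overlap, and those of Ahcy did.

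**Figure D5:**
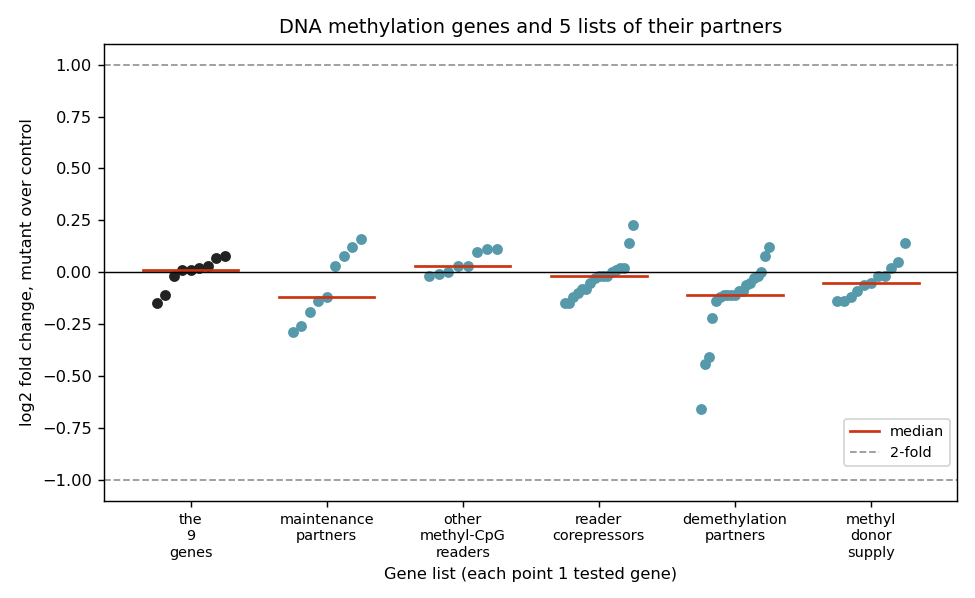
Log2 fold change of mutant over control brains (vertical axis) for the 9 genes and for the tested genes of 5 partner lists, with 1 point per gene, the median of each list as a line and dashed lines at a 2-fold change. Medians lie between -0.12 and 0.03, and Neil3 is the lowest point at -0.66.

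The cell makeup of the samples was read from marker lists. Markers of neurons, astrocytes, oligodendrocytes and their progenitors, microglia, endothelium, choroid plexus and blood were detected in all libraries. Those of oligodendrocytes were below 0 in log2 fold change for 8 of 8 genes, and 2, Mog and Cldn11, passed at edgeR adjusted p-values of 0.0351 and 0.0496. Their summed level was 21576 to 25839 CPM in controls and 17129 to 19850 CPM in mutants. Ttr, the transthyretin gene of the choroid plexus, was at 1381 to 1671 CPM in controls and at 1018 to 1214 CPM in mutants. The other 5 genes of the choroid plexus and ependyma list summed to 54.2 to 66.1 CPM and 50.7 to 64.2 CPM, which overlap. That split was made after seeing the data, and the 5 genes differed in direction. Log2 fold changes were -0.25 for Kl, -0.18 for Folr1 and -0.01 for Dnah11, against 0.03 for Foxj1 and 0.28 for Ccdc153. No gene of the list passed in edgeR (lowest adjusted p 0.0764, for Ttr). Summed levels of neurons (4240 to 4373 and 4275 to 4465 CPM), astrocytes (9185 to 10441 and 10066 to 10795 CPM), microglia (449 to 496 and 469 to 549 CPM), endothelium (476 to 489 and 452 to 522 CPM) and blood (333 to 406 and 327 to 413 CPM) overlapped. A sum can hide single genes. At an unadjusted edgeR p under 0.05, 1 neuron, 1 astrocyte and 1 endothelium gene was higher, and 0 in these lists were lower. These were Gad2 (log2 fold change 0.21), Aldh1l1 (0.26) and Slco1a4 (0.28). No gene of these lists passed in edgeR (lowest adjusted p 0.37, for Slco1a4). The progenitor list summed to 1026 to 1056 and 912 to 1013 CPM, which did not overlap. Of its 6 genes, 1 had a log2 fold change above 0 and 5 below, from 0.01 for Pdgfra to -0.29 for Sox10. Mean levels were 132 and 133 CPM for Pdgfra and 412 and 353 CPM for Gpr17. None of the 6 passed in edgeR (adjusted p from 0.21 to 0.996). The part of cell makeup in the values of the 9 genes was not tested.

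As a description of likeness, the log2 CPM of each member was correlated with that of all other tested genes over the 6 libraries, which share their depth scaling and 2 genotypes. The number of genes with a Pearson r of at least 0.9 ran from 69 for Dnmt3b to 356 for Tet2. The closest were L1cam and Egfl6 for Dnmt1 (0.996 and 0.982), Erg and Nol11 for Uhrf1 (0.991 and 0.989), Grin3a and Galns for Dnmt3a (0.993 and 0.992), and Cdh1 and Pak2 for Dnmt3b (0.988 and 0.985). They were Cbx7 and C530050E15Rik for Mbd1 (0.992 and 0.989) and Nkain4 and Rpl28 for Mbd2 (0.994 and 0.991). For the erasers they were L3mbtl1 and Dmd for Tet1 (0.996 and 0.995), Crocc and Gm20394 for Tet2 (0.997 and 0.995), and Myo7a and Klf7 for Tet3 (0.984 and 0.977). Among the 36 pairs of members, r was highest for Tet1 with Tet2 (0.94), Dnmt1 with Uhrf1 (0.91) and Dnmt3a with Tet3 (0.81), and lowest for Mbd2 with Tet1 (-0.91), Tet2 (-0.88) and Uhrf1 (-0.80). With 6 libraries, values this high are the top of a long list, and nothing is read from them about shared control.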

How the data were processed

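Whole brains at postnatal day 14 gave 6 polyA libraries, 3 control and 3 Mphosph8 mutant, grouped by their GEO titles. Per the study's methods and the submitters' processing notes, the authors sequenced single reads of 50 bases, trimmed them (Trim Galore 0.5.0), removed ribosomal, mitochondrial, phiX and adapter reads (Bowtie2 2.3.4.1), aligned to GRCm38 with STAR and counted reads with featureCounts (Subread 1.6.2). The deposited values are raw counts per Ensembl gene, with no normalization. Settings for strand and for multiply mapped reads were not given in the sources used here.

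Symbols and coordinates came from GENCODE M21 (GRCm38), which matched 54495 of 54532 identifiers. Genes were filtered with filterByExpr, scaled by TMM, and all 6 libraries were fitted with genotype as the only term by the quasi-likelihood method of edgeR 4.0.16 in R 4.3.3, with p-values adjusted by Benjamini-Hochberg across the 16731 genes tested. SE and 95% intervals were derived from the F statistic. CPM uses effective library sizes. Log2 CPM used a prior count of 2. DESeq2 1.42.0, limma-voom (limma 3.58.1), RLE factors, omission of the count filter, a floor of 1 CPM in 3 libraries, a test against a 1.2-fold change, a replicate block and each library left out were alternatives.

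The members and lists were chosen with earlier results of these data known. Named genes are the 9 members, Mphosph8, the largest and smallest log2 fold change of each partner list, Mki67, Top2a and Mcm5, and the 2 genes most correlated with each member. A gene of the reader list is not reported here by name. Others are said to be named after their values were seen or, as marker or duplicate loci, serve as checks. Chi-square per degree of freedom between libraries of a group was 3.42 to 12.3, above counting noise.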

Additional observations from a re-analysis of the deposited data

How the results depend on the processing

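The number of the 9 genes called was 0 under all 14 alternatives and the number of partner genes called was 0 under all 12. For the 9 genes these alternatives include an added fold change over 2 and the test against a 1.2-fold change. Both are stricter than the main test, which called 0, so they could give no other count. The log2 fold change of Mphosph8 lay between -1.13 and -0.85 in its 12 alternatives and passed in each. Of 108 refits of single members the lowest adjusted p was 0.636 (Tet2 without mutant replicate 1), and 11 changed the sign of a value near 0, all of them fits without 1 library. In those fits log2 fold changes ran from -0.06 to 0.02 for Dnmt1, from -0.04 to 0.06 for Mbd1, from -0.01 to 0.08 for Mbd2, from -0.07 to 0.06 for Tet1, from -0.06 to 0.20 for Tet2 and from -0.21 to 0.04 for Uhrf1. They ran from -0.28 (without control replicate 1) to -0.06 (without control replicate 2) for Dnmt3b and from 0.01 (without mutant replicate 1) to 0.11 (without mutant replicate 2) for Dnmt3a, with no change of sign. With the replicate block 0 of the 9 genes and 0 partner genes were called and Mphosph8 had an edgeR adjusted p of 3.15e-05, so no call changed. Deviations of same-numbered libraries correlated at 0.1, -0.047 and 0.08, so the numbers were not taken to pair the brains. Dnmt3b and Uhrf1, with 29 to 88 counts in a library, are those where depth limits most what could be seen. The mean summed level of the proliferation markers in controls was 157 CPM, and 139 CPM without control replicate 3, an alternative chosen after seeing the data.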
